A study of Mus musculus with 120 samples.

Results

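The 70 genes described here are the mouse histone cluster genes, taken as every gene symbol of the deposited expression table that starts with Hist1h, Hist2h, Hist3h or Hist4h, out of 48371 symbols. They comprise 6 genes for the linker histone H1, 20 for H2A, 19 for H2B, 12 for H3 and 13 for H4. The members were chosen by their symbol alone, but the set itself was selected on a view of these cells' FPKM values and of their relation to Mki67 and Top2a, so what follows is a description without tests. By name, 56 of the 70 genes are Hist1 genes on chromosome 13, 10 Hist2 genes on chromosome 3 and 3 Hist3 genes on chromosome 11. The last 1, Hist4h4, lies on chromosome 6. Hist1h2al, annotated as a processed pseudogene at chr13:51202727-51203065, lies far from the other Hist1 genes. All cells were taken at E14.5 from the endolymphatic sac of mouse embryos, the blind end of the inner ear's endolymph space. There were 58 wild-type cells and 62 Sox9Y440X/+ cells, which have 1 intact and 1 truncated copy of Sox9, a transcription factor gene, with translation ending at residue 440 in the second. Each cell was a Smart-seq2 library, full-length cDNA made from the RNA of 1 dissociated cell. Which embryo a cell came from is not given, so each genotype counts as 1 sample, no value has a replicate error, and SDs are over cells.

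Replication-dependent histone genes supply the proteins that package newly made DNA, and their transcripts accumulate while DNA is copied and are degraded when copying ends. Their mRNAs usually end not in a poly(A) tail but in a short hairpin, the histone 3′ stem-loop, which the stem-loop binding protein SLBP holds. Smart-seq2 primes cDNA from poly(A) with oligo-dT, so these mRNAs are not its usual template, although some histone genes also make polyadenylated transcripts that run past the stem-loop. Mki67 encodes a protein that coats mitotic chromosomes and is a common marker of cycling cells, and Top2a encodes the DNA topoisomerase that untangles copied chromosomes.

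The stem-loop was looked for in the annotated transcripts of all 70 members in GENCODE M21 on GRCm38, the same assembly as the mm10 build of the files. It was defined as a fully pairing stem of 6 bases on each side that starts with GG, G-T pairs allowed, around a loop of 4 bases that starts with TT. A match was present in 44 of 70 members (62.9%), against 411 of 21901 protein-coding genes (1.88%). The other 26 have no match in their annotated transcript, which says only that these letters are not in the annotated sequence. The sites below are shown because they belong to members that the results turn on or hold a variant stem, with the stem-loop in capitals, 5 bases to either side where annotated, and coordinates of the printed stretch.
Hist1h2ao (chr13:21810893-21810918, + strand): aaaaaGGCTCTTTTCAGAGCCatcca
Hist1h2ap (chr13:21833026-21833049, - strand): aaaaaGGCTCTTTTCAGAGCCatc
Hist2h2aa1 (chr3:96246027-96246052, + strand): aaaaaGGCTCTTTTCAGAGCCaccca
Hist3h2a (chr11:58955167-58955192, + strand): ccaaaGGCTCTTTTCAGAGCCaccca
Hist1h1c (chr13:23739507-23739532, + strand): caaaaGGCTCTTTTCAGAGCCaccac
Hist1h3b (chr13:23752815-23752840, + strand): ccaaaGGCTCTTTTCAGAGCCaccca
Hist1h3c (chr13:23745042-23745067, - strand): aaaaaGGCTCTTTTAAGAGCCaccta
Hist1h4d (chr13:23581945-23581970, + strand): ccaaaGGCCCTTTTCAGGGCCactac
Hist1h4b (chr13:23757361-23757386, + strand): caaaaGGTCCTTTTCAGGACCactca
The stem-loop of Hist1h2ao is the commonest of 6 forms and is shared letter for letter by 26 members. The form of Hist1h4d is found in 7 members, that of Hist1h3c in 6 and that of Hist1h4b in 2.

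The annotated transcripts differ in where they stop. In 22 members the transcript ends within 100 bases of the stem-loop, as in Hist1h2ap with 3 bases after it and Hist1h2ao with 31. In the other 22 it runs on further: by 770 bases in Hist1h4d, 840 in Hist1h1c, 1643 in Hist3h2a and 2010 in Hist1h2ac. The polyadenylation hexamer AATAAA, searched on the sense strand, occurs in the transcripts of 22 members and lies in the last 50 bases in 15. The median number of cells with the gene was 10.5 for the 22 that run on, 12 for the 22 that stop at the stem-loop and 8.5 for the 26 with no match. Of the members 61 were matched to a RefSeq promoter window on GRCm38, from 250 bases before to 50 after the start. The letters TATAAA on the sense strand were present in 49.2% of the members' windows, against 9.77% of all 27025 genes, and CCAAT on either strand in 85.2% against 41.1%.

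**Figure D1:**
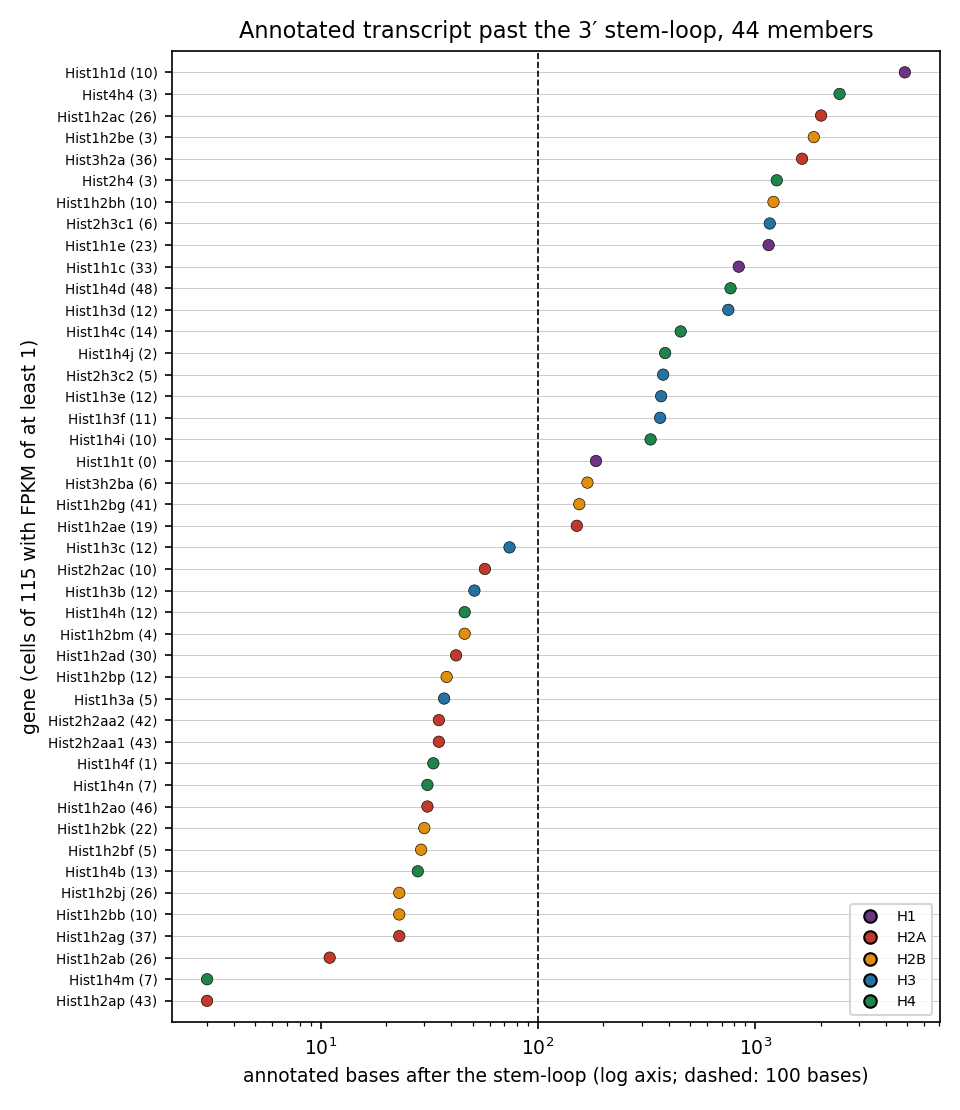
Annotated transcript length past the stem-loop (bases, log axis) for the 44 members with a match, with the number of cells of 115 at an FPKM of at least 1 in parentheses and colours for the family. Widely detected members lie at both ends of the axis: Hist1h2ap, 3 bases past the stem-loop, was found in 43 cells and Hist1h4d, 770 bases past it, in 48.

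The values are FPKM, fragment numbers scaled by transcript length and by the library's total, and the depth of a cell is unknown. The lengths used are not given. The longest annotated transcripts of the members range from 312 bases (Hist1h4k) to 7425 (Hist1h1d), so levels of different genes can be compared only roughly. A gene counts as detected at an FPKM of at least 1. Left out were 5 cells labelled with under 1000 genes, 1 wild-type and 4 Sox9Y440X/+: they held at most 2 members and 18.6 FPKM of members in all. The 115 cells kept carried 1209 to 6459 genes, with medians of 3270 in 57 wild-type and 4169.5 in 58 Sox9Y440X/+ cells. Cells were clustered without the members and without short lists of histone-related and cell cycle genes. Cell cycle genes outside those lists were not set aside. Naming the clusters from marker genes gave 56 wild-type and 37 Sox9Y440X/+ epithelium-like cells and 1 wild-type and 21 Sox9Y440X/+ mesenchyme-like cells. Every epithelium-like cell held 4 to 14 of 14 epithelium markers, and mesenchyme-like cells held 0 to 2 of them. Mesenchyme markers numbered 2 to 10 of 12 in the Sox9Y440X/+ mesenchyme-like cells. In that class 1 cell held 9 of 9 endothelium markers, and its part in the results was not tested.

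Most of the set was found in these poly(A)-primed cells, but each gene in few of them. Of 70 members, 67 were detected in at least 1 of 115 cells, 34 in at least 10% and 12 in at least 25%. Hist1h1t, known as the testis linker histone, Hist1h2aa and Hist2h2ab were not detected in any kept cell. The most widely detected was Hist1h4d, in 48 of 115 cells, followed by the H2A genes Hist1h2ao in 46 and Hist1h2ap in 43, the H2B gene Hist1h2bc in 43, and the H2A genes Hist2h2aa1 in 43 and Hist2h2aa2 in 42. No member was found in over 50% of cells outside those with both Mki67 and Top2a. In 14 cells no member was detected, 9 wild-type and 5 Sox9Y440X/+, all of them epithelium-like. These 14 cells carried 1209 to 5310 genes with a median of 2758.5, against a median of 3990 in the rest, and the ranges overlap. The part of depth in the missing detection was not tested.

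Median histone transcript levels were highest in mesenchyme-like cells, of which 9 had both Mki67 and Top2a. The 13 without both held 90.9 to 587 FPKM of members, within the range of the epithelium-like cells. The summed FPKM of all members ranged from 0 to 3363 with a median of 145 in the 56 wild-type epithelium-like cells, and from 0 to 1288 with a median of 190 in the 37 Sox9Y440X/+ epithelium-like cells. It ranged from 90.9 to 11332 with a median of 485 in the 21 Sox9Y440X/+ mesenchyme-like cells, and the only wild-type mesenchyme-like cell, WT-027, had 3395. The ranges of the first 3 groups overlap, WT-027 lies above both epithelium-like ranges, and no mesenchyme-like cell lacked a member. The number of members per cell had medians of 4, 7 and 16 in the first 3 of these groups, and WT-027 had 37. As a share of all FPKM in a cell, members reached 2.14% in cell mutant-056c, against medians of 0.0329%, 0.0369% and 0.113% in the 3 groups.

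**Figure D2:**
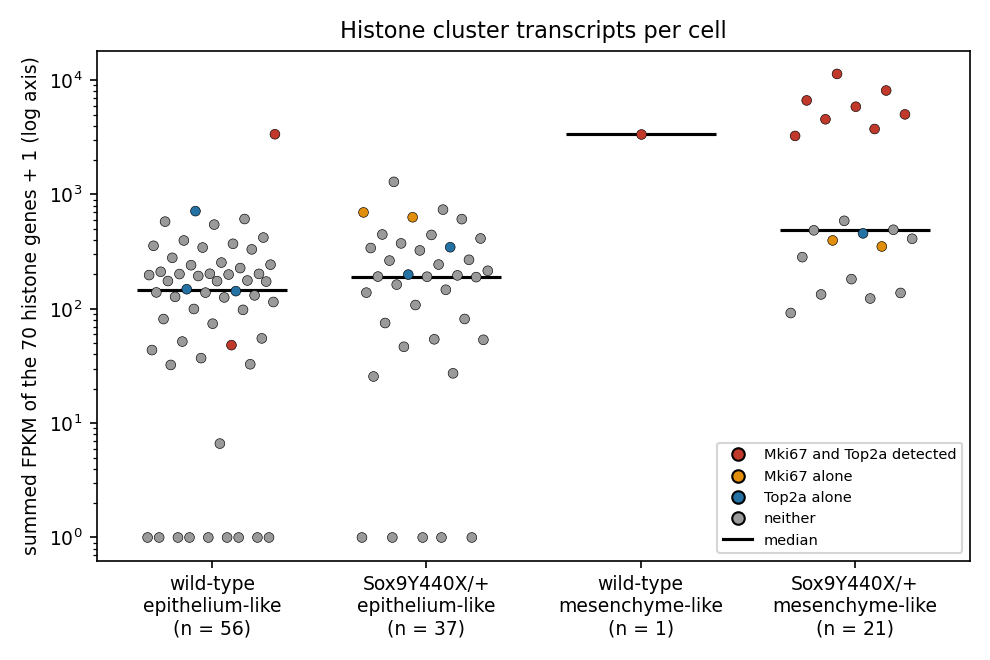
Summed FPKM of the 70 members plus 1 (log axis) in each of 115 cells by genotype and class, with colours for detection of Mki67 and Top2a and lines at the medians. The cells with both markers lie at 3251 or above, apart from 1 wild-type epithelium-like cell at 47.1, and cells at the bottom have no member.

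Within Sox9Y440X/+ cells, the mean log2 of the summed FPKM plus 1 was 9.74 (SD 2.32, n = 21) in mesenchyme-like and 6.62 (SD 2.95, n = 37) in epithelium-like cells, a difference of 3.12. By gene, 24 of 70 members were higher by at least 1 log2 unit of mean log2(FPKM + 1) in mesenchyme-like cells, against 1.9% of all symbols. Among those detected in at least 10% of these cells it was 24 of 44 members, against 8.84% of 9880 symbols. Lower by as much were 0 members, against 3.68% and 18%. A symbol could pass the 10% filter through the mesenchyme-like cells alone, so the 24 of 44 may follow in part from the filter. The median difference of the 70 members was 0.69, against 0 over all symbols. The 24 were 12 H2A genes, 5 H3 genes, 3 H2B genes, 2 H1 genes and 2 H4 genes. The widest differences were in Hist1h2ao (4.96), Hist1h2ap (4.32), Hist1h2ab (3.78), Hist1h2ag (3.48), Hist1h2ai (3.43) and Hist1h2ad (3.30), all H2A genes. The epithelium-like cells had the higher mean for Hist2h2aa2 (-0.99), Hist2h2aa1 (-0.87) and Hist3h2a (-0.75), which are H2A genes outside the large Hist1 cluster, and these stayed short of 1 log2 unit. Without the 8 Sox9Y440X/+ cells with both Mki67 and Top2a, all mesenchyme-like, the difference of the summed value was 1.45 and 7 members were higher by 1 log2 unit. The remaining 13 mesenchyme-like cells held 90.9 to 587 FPKM of members, median 350, within the range of the epithelium-like cells.

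By family, H3 differed most between the classes in how many cells had any member: 13 of 21 Sox9Y440X/+ mesenchyme-like cells, 5 of 37 Sox9Y440X/+ epithelium-like cells and 3 of 56 wild-type epithelium-like cells. H2A was found in 20, 28 and 34 of the same cells, H4 in 15, 18 and 27, H2B in 14, 17 and 24, and H1 in 11, 11 and 20. The median summed H2A level was 307 FPKM in the mesenchyme-like group, 53.1 in the Sox9Y440X/+ epithelium-like group and 27.7 in the wild-type epithelium-like group. Counted by gene, 53 members were present in at least 10% of Sox9Y440X/+ mesenchyme-like cells, 25 in that share of Sox9Y440X/+ epithelium-like cells and 17 in that share of wild-type epithelium-like cells. In this last group 10% of the cells is a larger number than among the 21 mesenchyme-like cells, so the counts do not rest on equal numbers.

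Between the genotypes, the mean log2 of the summed FPKM plus 1 was 7.75 (SD 3.11, n = 58) in Sox9Y440X/+ and 6.27 (SD 3.10, n = 57) in wild-type cells, a difference of 1.48. Higher by at least 1 log2 unit were 8 of 70 members, against 1.26% of all symbols. Among those detected in at least 10% of cells it was 8 of 34 members, against 6.58% of 9238 symbols. Lower by as much were 0 members, against 0.699% and 3.63%. A symbol could pass the 10% filter through the Sox9Y440X/+ cells alone, so the 8 of 34 may follow in part from the filter. All 8 are H2A genes of the Hist1 cluster: Hist1h2ao (2.71), Hist1h2ap (2.42), Hist1h2ag (1.75), Hist1h2ab (1.47), Hist1h2ai (1.37), Hist1h2ad (1.30), Hist1h2ac (1.13) and Hist1h2ae (1.11). The Sox9Y440X/+ cells include 21 of the 22 mesenchyme-like cells, so genotype and class move together in this comparison. Without the 11 cells with both markers the difference of the summed value was 0.92 and 3 members passed.

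Among epithelium-like cells alone the genotypes were closer, at 6.62 (SD 2.95, n = 37) in Sox9Y440X/+ against 6.17 (SD 3.03, n = 56) in wild-type cells, a difference of 0.45. Only Hist1h2ao was higher by at least 1 log2 unit (1.06), 1 of 70 members against 1.71% of all symbols. Among those detected in at least 10% of these cells it was 1 of 19 members, against 9.12% of 8994 symbols. Hist1h2ap fell just short of 1 log2 unit. Lower were 0 of 70, against 0.296% and 1.57%. The members' share was thus at or below the background. Hist1h2ao and Hist1h2ap are near copies in sequence, so they are not separate observations. The difference turned to -0.32 when only cells with 2500 to 5500 genes were used, so the sign within the epithelium depends on the cells taken. Sox9Y440X/+ epithelium-like cells also carried more genes, with a median of 4506 against 3241.5, and the part of this in the difference was not tested. Mki67 and Top2a differed by -0.04 and -0.19 between the same cells.

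Both markers were detected together in 11 cells, 3 wild-type (5.26% of 57, exact 95% interval 1.10% to 14.6%, for counting error only) and 8 Sox9Y440X/+ (13.8% of 58, 6.15% to 25.4%). By class they were 9 mesenchyme-like and 2 epithelium-like cells. Mki67 was detected without Top2a in 4 cells, all Sox9Y440X/+, Top2a without Mki67 in 6, and neither in 94. In 10 of the 11 cells with both, members summed to 3251 to 11332 FPKM and 23 to 51 members were detected. The highest value among the other 104 cells was 1288, in the Sox9Y440X/+ epithelium-like cell mutant-026c, so these 10 cells stand clear of all others. Cells with neither marker had 0 to 1288 FPKM, median 173, and cells with Mki67 alone or Top2a alone had 350 to 696 and 142 to 714. The 11 cells carried 3369 to 6459 genes, median 4684, against a median of 3515.5 in cells with neither marker, ranges that overlap.

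The exception was WT-024, an epithelium-like cell with 22.6 FPKM of Mki67 and 37.4 of Top2a. It held 4 members, all H4 genes, summing to 47.1 FPKM: Hist1h4m, the highest, Hist1h4h at 13.6, Hist1h4n at 8.73 and Hist1h4d at 3.74. Of 24 genes of G2 and mitosis it had all 24, with 645 FPKM of Ccnb1, the cyclin of mitotic entry, and 815 of Cdc20, an activator of the anaphase-promoting complex. Of 24 genes of DNA replication and S phase it had 7, and Slbp stood at 2.47. Cell mutant-024c was close to it in these lists, with 23 G2 and mitosis genes, 6 S phase genes, 739 FPKM of Ccnb1 and 526 of Cdc20, yet it held 3251 FPKM of members. At the other end, mutant-056c had 17 S phase and 14 G2 and mitosis genes, 810 FPKM of the replication clamp gene Pcna, 0 of Cdc20 and the highest histone sum of all cells. S phase genes without high histone values also occurred: mutant-031c, with Top2a alone, had 20 S phase genes, 208 FPKM of Slbp and 456 FPKM of members, and WT-001 had 17 S phase genes and 142 FPKM of members.

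**Figure D3:**
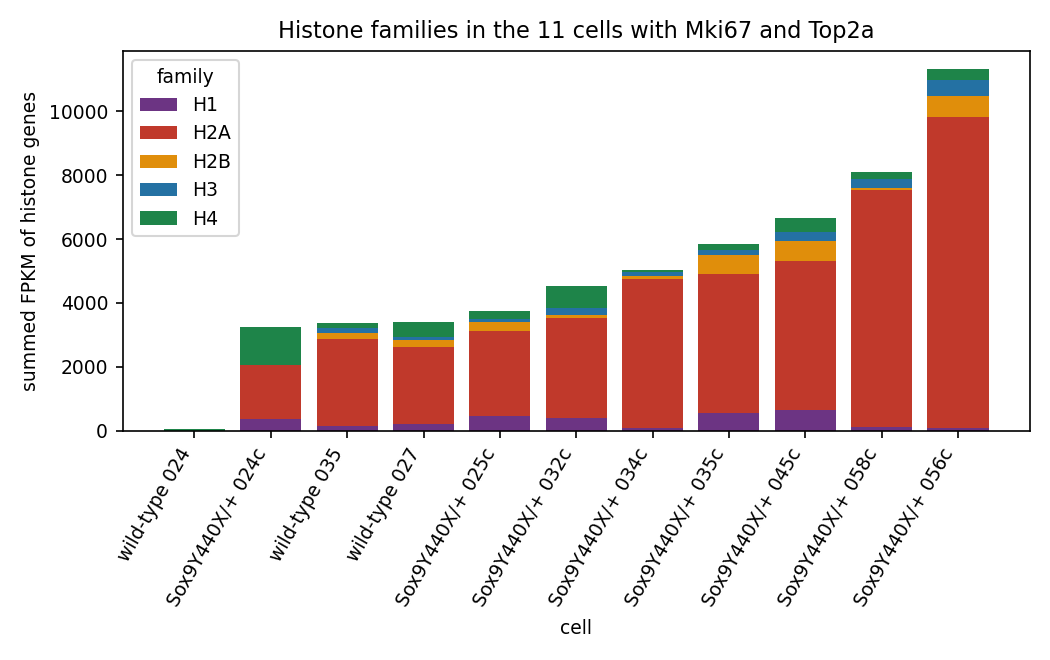
Summed FPKM of members by family (stacked bars) in the 11 cells with both Mki67 and Top2a, ordered by total. H2A genes make up the largest block in every cell but WT-024, from 51.5% to 92.8% of the total.

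H2A genes accounted for most of the signal in the cells with both markers. In the 10 such cells with any H2A gene detected, H2A took 51.5% to 92.8% of the summed member FPKM, median 73.0%. The medians were 7.50% for H1, 5.75% for H2B, 5.49% for H4 and 3.02% for H3. These are shares of FPKM, depend on the transcript lengths used, and say nothing of the proteins. They also depend on how reads shared between near copies were counted, which is not given. The longest run of A is 12 bases in the transcripts of Hist1h2ao and Hist1h2ap, 4 in Hist1h2ab and 5 in Hist1h2ad. The part of such runs in oligo-dT priming was not tested. Hist1h2ao reached 505 FPKM or more in 10 cells, all with both markers: 566 in WT-027, 505 in WT-035, and 1119, 1236, 1086, 2387, 2172, 2146, 4287 and 2838 in mutant-024c, mutant-025c, mutant-032c, mutant-034c, mutant-035c, mutant-045c, mutant-056c and mutant-058c, with 0 in WT-024. Among cells with neither marker its highest value was 101 FPKM. By class, 19 of 21 Sox9Y440X/+ mesenchyme-like cells had it, compared with 15 of 37 epithelium-like cells of that genotype and 11 of the 56 wild-type ones.

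Hist1h2ap ranged from 264 FPKM in mutant-024c to 2515 in mutant-056c over the same 10 cells and stood at 52.3 at most in cells with neither marker. Of the 50-base stretches of the Hist1h2ao transcript, 93.5% also occur in Hist1h2ap, so the counting could split reads between them. Rarer H2A genes were found mainly in these cells: Hist1h2an was found in 10 of the 11 cells with both markers and 3 of the other 104, Hist1h2ah in 10 and 4, and Hist1h2aj, annotated as a pseudogene, in 10 and 6. They too share 85.8% to 93.1% of their 50-base stretches with other genes, and their levels cannot be told apart from those of their copies.

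The next 5 H2A genes of the Hist1 cluster had similar patterns, but they too share sequence. From 43.2% (Hist1h2ae) to 90.1% (Hist1h2ai) of their 50-base stretches also occur in other genes, so they are not fully separate observations. Hist1h2ab had a median of 262 FPKM and a highest value of 804 in the cells with both markers, Hist1h2ae 246 and 511, Hist1h2ad 196 and 593, Hist1h2ai 185 and 431, and Hist1h2ag 98.9 and 573. Each was detected in 10 of the 11 cells and absent from WT-024, the cell without any H2A gene. In the other 104 cells Hist1h2ag and Hist1h2ai were each found in 27, Hist1h2ad in 20, Hist1h2ab in 16 and Hist1h2ae in 9. Hist1h2ac, whose annotated transcript runs 2010 bases past the stem-loop and shares 14.1% of its 50-base stretches with other genes, had a lower median in the marked cells, 16.8 FPKM, with 59.6 at most. It was detected in 9 of the 11 and 17 of the other 104 cells. Its exons overlap those of Gm24991 on the same strand, and the part of shared reads in its values was not tested.

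The H3 genes, whose product has a tail that carries many chromatin marks, were split by the markers. At least 1 H3 member was detected in 10 of 11 cells with both markers and in 12 of the other 104. Hist1h3b was found in 9 and 3 cells: it stood at 9.54 in WT-027, 38.5 in WT-035 and from 20.1 to 120 in 7 Sox9Y440X/+ cells, and at 0 in WT-024 and mutant-024c. Hist1h3c, Hist1h3d and Hist1h3e were each found in 8 and 4 cells, and Hist1h3f in 8 and 3. The highest value of Hist1h3f, 234 FPKM, was in a cell with neither marker, mutant-057c, so single high values also occurred outside the marked cells.

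The linker histones bind DNA between nucleosomes, and 2 of the 6 genes were higher in mesenchyme-like cells. Hist1h1e (2.82) was detected in 10 of 11 cells with both markers, from 51.7 to 415 FPKM, and in 13 of the other 104, where its highest value was 75.5. Hist1h1b (1.75) was found in 7 and 2 cells, with 352 FPKM at most, and shares no 50-base stretch with another gene. Hist1h1c, named after its values were seen, was spread more evenly: 6 of 11 and 27 of 104 cells, at most 27.2 FPKM in the first and 225 in the second. Its difference between the classes was -0.32. The remaining H1 genes were rare: Hist1h1d was found in 7 and 3 cells, with 53.9 FPKM at most, and Hist1h1a in 1 cell, mutant-045c, at 86.8. Hist1h1e overlaps Hist1h2be on the same strand in the annotation, so reads in the overlap could be assigned to either gene.

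Among H2B genes the 3 that differed by class were Hist1h2bg (1.41), Hist1h2bj (1.33) and Hist1h2bk (1.26). Hist1h2bg was found in 9 of 11 cells with both markers and 32 of the other 104, with highest values of 206 and 163 FPKM, so it was less divided by the markers than the H3 genes. Hist1h2bc, a gene model at chr13:23684199-23692908 on the + strand with no stem-loop match in its annotated transcript, had its high values elsewhere. It was detected in 8 of 11 cells with both markers but at 36.5 FPKM at most, while in the other 104 cells it was found in 35 and reached 692 in mutant-026c. Outside the cells with both markers, 4 cells held 13 or more G2 and mitosis genes, and in 3 of them H2B was the main family. WT-019, with Top2a alone, 17 G2 and mitosis genes and 845 FPKM of Ccnb1, had 551 FPKM of H2B out of 714, and mutant-013c, with Mki67 alone and 16 such genes, had 538 out of 696. In mutant-019c, also with Mki67 alone, it was 457 out of 631, and in the fourth, WT-021, H1 took 117 of 240. Hist1h2bc and Hist1h2bg share 23.1% of the 50-base stretches of Hist1h2bc.

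Of the H4 genes Hist1h4d was the only member detected in all 11 cells with both markers, from 3.74 to 1176 FPKM with a median of 218, and it was also found in 37 of the other 104. It shares 10.2% of its 50-base stretches with other genes, the fewest among the 10 most widely detected members. Its means were 2.02 (SD 2.58) in wild-type and 1.54 (SD 2.54) in Sox9Y440X/+ epithelium-like cells and 4.23 (SD 3.69) in Sox9Y440X/+ mesenchyme-like cells on the log2(FPKM + 1) scale. Hist1h4c (1.03 between the classes) was found in 7 of 11 and 7 of 104 cells. Hist1h4a, in 13 cells in all, was present in 7 and 6. High single values of H4 genes occurred in cells with neither marker: Hist1h4i stood at 401 FPKM in mutant-036c, an epithelium-like cell with 10 G2 and mitosis genes, and Hist1h4h at 221 in WT-004.

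Some members reached the detection level of 1 FPKM on 1 side alone, always in few cells. Detected only in cells with both markers were 7 of the 67 detected members (10.4%), against 2.63% of all 18396 symbols detected: Hist1h2ak in 5 cells, Hist1h2bm in 4, Hist1h2be and Hist1h3g in 3 each, Hist1h4j in 2, and Hist1h1a and the pseudogene Hist3h2bb-ps in 1 each. The highest value among them was 135 FPKM of Hist1h2bm in mutant-056c. Below the detection level, other cells also held Hist1h2be (0.319 in WT-010) and Hist1h4j (0.707 in mutant-061c). Detected only in the other cells were 5 (7.46%), against 35.6% of all symbols detected. They were Hist3h2ba in 6 cells, the pseudogene Hist1h2al in 5, Hist4h4 in 3, Hist1h2ba, known from testis, in 2 and Hist1h4f in 1. Of these Hist3h2ba reached 201 FPKM in WT-036 and the others stayed at 16.9 or below.

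Hist2h2aa1 was detected in 5 of 11 cells with both markers and 38 of the other 104, with highest values of 40.9 and 123 FPKM, and its copy Hist2h2aa2, all of whose 50-base stretches recur in other genes, in 5 and 37. Hist3h2a was found in 2 and 34 cells, at 4.45 FPKM at most in the first and 104 in the second, and its exons overlap those of Trim17 on the same strand. Counted by the start of the name, any of the 56 Hist1 members was present in 11 of 11 and 80 of 104 cells. Any of 10 Hist2 members was present in 9 and 45, any of 3 Hist3 members in 2 and 37, and Hist4h4 in 0 and 3. In all, 61 of 70 members were found in a higher share of the cells with both markers and 6 in a lower share, where 46.6% of all symbols detected were in a higher share. The part of depth in these shares was not tested.

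**Figure D4:**
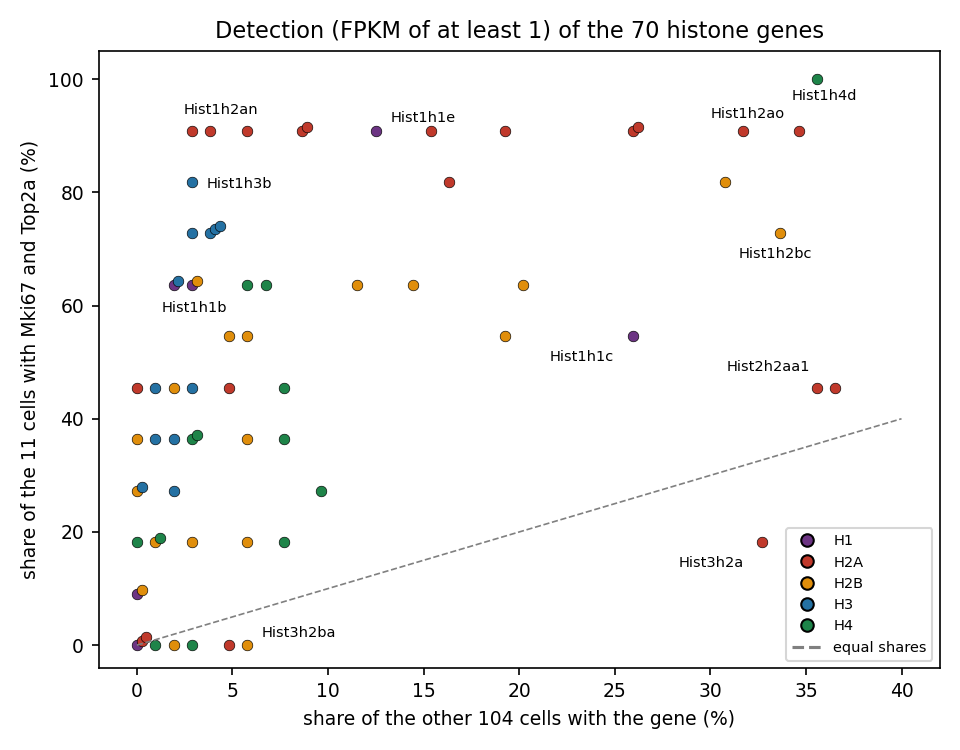
Share of the 11 cells with both Mki67 and Top2a (vertical) against the share of the other 104 cells (horizontal) in which each of 70 members was detected, by family; points at the same place are set slightly apart. H3 genes lie along the left side, Hist1h4d at 100% and 35.6%, and Hist3h2a below the line of equal shares.

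Over the 115 cells the number of members detected had a Spearman correlation of 0.44 with Mki67 and 0.46 with Top2a, and of 0.47 with the number of genes per cell. The points share depth and library source, and the first 2 values were 0.13 and 0.17 over the 104 cells without both markers, while the third was 0.48. In the 21 Sox9Y440X/+ mesenchyme-like cells they were 0.84 with Mki67, 0.82 with Top2a and 0.73 with the number of genes. In the 56 wild-type epithelium-like cells they were 0.02 and 0.29, and 0.67 with the number of genes. Within the 11 cells with both markers they were 0.45 with Mki67, 0.078 with Top2a and 0.36 with the number of genes, while the summed level had -0.14 with Mki67 and 0 with Top2a. Among the 34 more widely found members, 26 reached a correlation of 0.3 or more with Mki67, against 3.91% of 9237 symbols, and 25 with Top2a, against 3.8%. Only 19 members were found in at least 10% of the cells without both markers. The rest of the 34 passed the filter through the cells with both markers, so their correlations follow in part from the filter. Hist1h2an (0.69 and 0.74) and Hist1h3b (0.66 and 0.61), each found in only 3 of the other 104 cells, were among the closest. The values were near 0 for Hist3h2a (-0.15 and -0.05) and Hist2h2aa1 (-0.01 and 0.06).

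**Figure D5:**
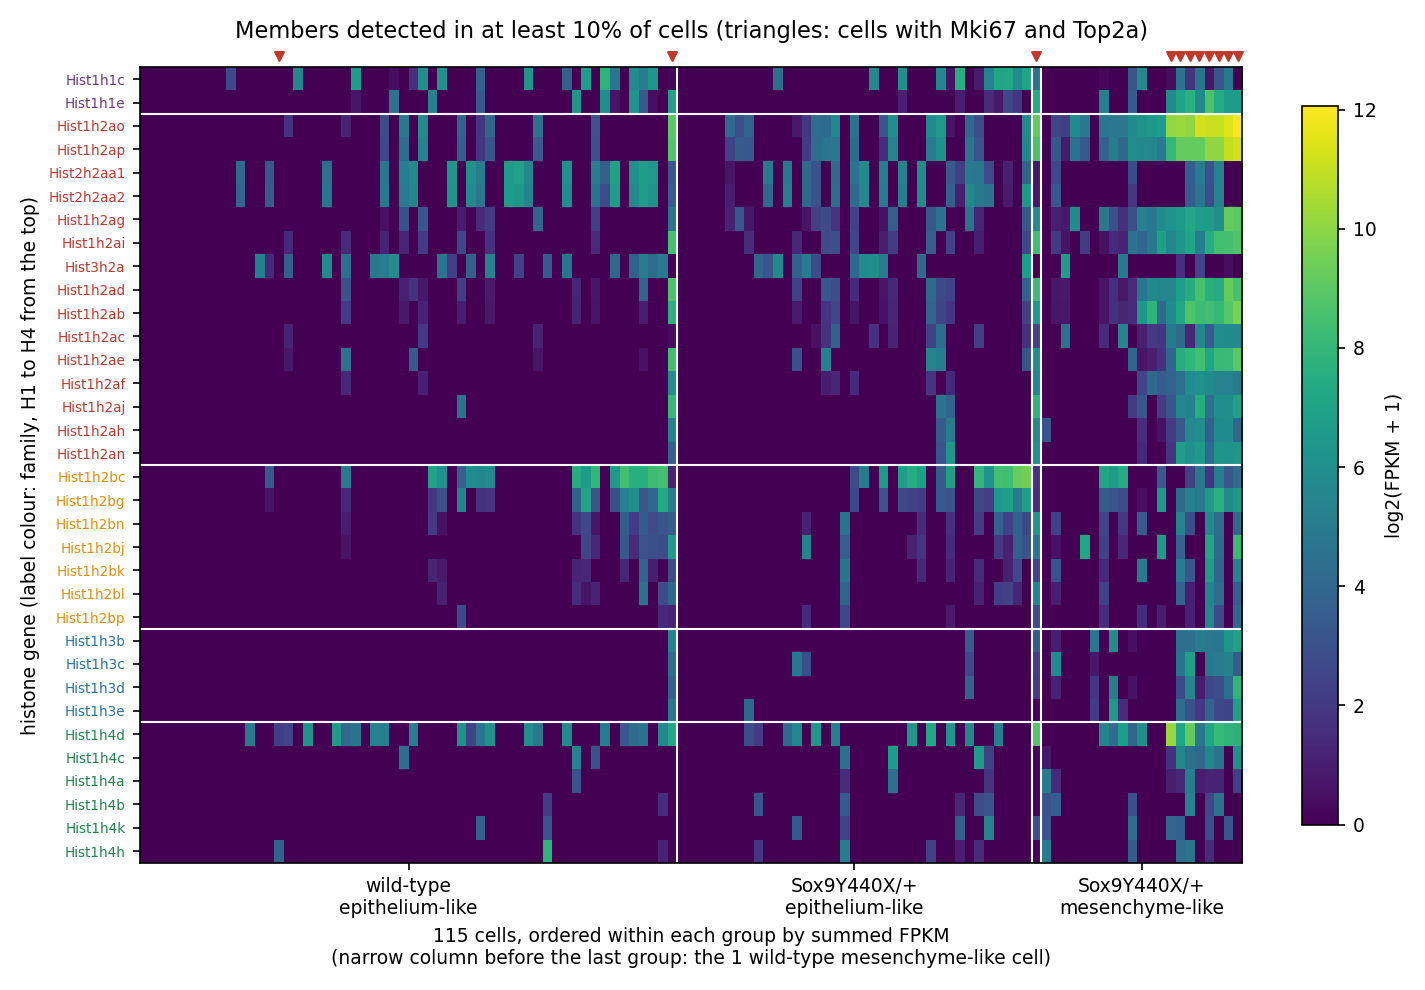
Level, as log2(FPKM + 1), of the 34 members detected in at least 10% of 115 cells (rows, by family) in each cell (columns, by group and then summed FPKM), with triangles over the cells with Mki67 and Top2a. H2A and H3 genes are high together under the triangles, while Hist1h2bc, Hist2h2aa1 and Hist3h2a are spread over the epithelium-like cells.

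The genes that serve histone supply were set beside the members in the class comparison within Sox9Y440X/+ cells. Of the 9880 symbols detected in at least 10% of these cells, 8.84% were higher by at least 1 log2 unit and 18% lower. No list below had a larger share of lower genes than that. Of the genes that process or transcribe histone mRNA, 2 of 12 detected were higher by at least 1 log2 unit and 1 was lower: Slbp (1.92) and Srrt (1.07), a cap-binding partner, against Cpsf3 (-1.48), the endonuclease of 3′ cleavage. Slbp was found in 10 of the 11 cells with both markers and in 42 of the other 104. Of the histone chaperones, 5 of 13 were higher and 2 lower. Nap1l1, an H2A-H2B chaperone (2.32), Nasp, which carries H3-H4 (1.61), and Asf1b (1.52) were higher, and the acetyltransferase gene Hat1 (-1.77) and Rbbp7 (-1.74) were lower. Of the genes listed as replication-independent histone variants, 5 of 10 were higher and 1 lower. In front were the H2A variant genes H2afz (4.15), H2afv (3.21) and H2afy2 (2.91), and H2afj was lower (-2.49). H2afz was found in all 21 mesenchyme-like cells and in 26 of 37 epithelium-like cells.

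Of the DNA replication and S phase genes, 15 of 19 were higher in mesenchyme-like cells and 0 lower, with Tipin (2.56), the helicase gene Mcm6 (2.55) and the thymidylate synthase gene Tyms (2.48) in front. Of the G2 and mitosis genes it was 20 of 23 and 0, led by Ube2c (2.80), Birc5 (2.67) and Ccnb2 (2.57), with Top2a at 2.38 and Mki67 at 1.71. These 2 markers are themselves in the list. Both were detected in 8 of the 21 mesenchyme-like cells and 0 of the 37 epithelium-like cells. None of the lists was recomputed without those 8 cells, and a gene could pass the 10% filter through the mesenchyme-like cells alone. Between the genotypes within the epithelium the same lists gave 0 of 13 higher and 1 lower, the helicase gene Mcm2 (-1.21), and 1 of 6 higher, Hmgb2 (1.11). These are single genes. Of the 8994 symbols detected in at least 10% of the epithelium-like cells, 9.12% were higher and 1.57% lower. Over all cells the differences between genotypes were 0.51 for Mki67 and 0.54 for Top2a.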

How the data were processed

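The authors deposited 1 table of FPKM values (fragments scaled by transcript length and library total), with 120 cells and 48555 gene entries. Named in the submitters' processing notes, without roles, are Cufflinks, HISAT2, HTSeq, SAMtools 0.1.18 and the build mm10. For settings and annotation, the sources used here give nothing. FPKM holds no read counts, so depth is unknown. The lowest value above 0 was 7.98e-318, hence the detection level of 1. An exact 0 can be a failed estimate: Gapdh was listed at 0 in 2 kept cells. Summed FPKM per kept cell ranged from 344424 to 4444522.

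Entries with the same symbol were summed (none of the members had more than 1). Levels were compared as differences of mean log2(FPKM + 1), with a pseudocount of 1, which understates differences of low genes. Shares of cells have exact Clopper-Pearson 95% intervals for counting error only. With cells of unknown animals, 1 sample per genotype, no test or p-value was computed. Cells with fewer than 1000 genes were left out. The others were put into 8 clusters (Ward's method, 15 components, 1500 variable genes, members and listed histone-related and cell cycle genes set aside), named from 12 marker lists. Doublets were not removed. No 2 cells were near copies, the highest correlation being 0.698. Of 196 listed genes 191 were found.

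Members, lists and tests were chosen with earlier results of these data known. Named members are the 10 detected in most cells and those that differ by at least 1 log2 unit in a comparison, and of each list the widest differences. Other members were named outside that rule, after their values were seen. Sequences come from GENCODE M21 (68 members matched by ID, 2 by symbol) and RefSeq promoters. The reads of 34 members with over 50% of 50-base stretches shared, and of 26 that overlap another gene's exon, may be split between genes. Strand use in counting is not given. Python 3.11.15, numpy 2.4.6, pandas 2.3.3 and SciPy 1.17.1 were used. The code for differences and clustering was run on simulated cells of 2 near-equal classes, a simpler setting than these data. That run does not show that the 8 clusters or their names are right.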

Additional observations from a re-analysis of the deposited data

How the results depend on the processing

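The differences below are of mean log2(summed member FPKM + 1), and the counts are of members higher by at least 1 log2 unit, in the order all cells between genotypes, epithelium-like cells between genotypes, and mesenchyme-like minus epithelium-like Sox9Y440X/+ cells (1.48, 0.45 and 3.12; 8, 1 and 24). Leaving out the 11 cells with both Mki67 and Top2a, an alternative chosen after seeing the data, gave 0.92 and 3, a count of 2, and 1.45 and 7, and turned the class difference of Hist1h4c (-0.48), Hist1h2an (-0.15), Hist1h1b (-0.13), Hist1h2bg (-0.046) and Hist1h2ae (-0.024). A pseudocount of 0.1 gave counts of 21, 3 and 41, a pseudocount of 10 gave 2, 0 and 10, and the log2 ratio of mean FPKM gave 35, 7 and 43, with 0.14 for the epithelium-like sum. In cells with 2500 to 5500 genes the first 2 differences were 0.87 and -0.32, the latter with a count of 0. The epithelium-like sum was 0.19 in cells with at least 2000 genes and 0.90 over members detected in at least 10% of cells, and its count was 2 without the highest cell of each group and 2 with more variable genes in the clustering. The number of members in at least 10% of cells, 34, was 17 at an FPKM of at least 10, 12 at 25% of cells and 19 without the cells with both markers. The correlation of members per cell with Mki67, 0.44, was 0.13 in wild-type cells, 0.070 in epithelium-like cells and 0.13 without the cells with both markers, and that with Top2a, 0.46, was 0.19 and 0.17 in the last 2. For each of these the cause was not tested. Of 312 recomputed class differences of called genes, 227 stayed within their bounds, 80 moved and 5 reversed. The alternative with all 120 cells was not run within classes, since the 5 left-out cells have no class. No paired analysis was possible because no test was made, and the numbers in the labels only name single cells. Depth per cell is unknown, so a gene at 0 may be unsampled.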
